A study of Mus musculus with 28 samples.

Results

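Natriuretic peptide signalling was examined through 7 genes, Npr1, Npr2, Npr3, Nppb, Nppc, Prkg1 and Prkg2, out of 54429 in the count table. They were taken by symbol, and the set was chosen by the measured level of Npr3, which was far lower in hypoxic smooth muscle cultures than in their comparison groups. The values of those cultures are therefore given as a description, without a test. The data are RNA sequencing counts from 28 libraries of O9-1 cells, a mouse cell line of cranial neural crest origin; in the embryo, neural crest cells form much of the face and skull. The study asked how low oxygen affects the differentiation of these cells.

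Natriuretic peptides are small ring-shaped hormones that act through cyclic GMP, a second messenger made inside the cell. Npr1 and Npr2 encode receptors that are themselves guanylyl cyclases. Npr1 binds the atrial and B-type peptides, and Npr2 binds the C-type peptide, a known driver of cartilage growth plates. Npr3 encodes the clearance receptor, which has no cyclase domain and takes peptide up for breakdown. Nppb and Nppc encode the B-type and C-type peptides. Prkg1 and Prkg2 encode the kinases that cyclic GMP activates. The product of Prkg1 is known for relaxing smooth muscle, and that of Prkg2 for its role in growth plate cartilage.

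The 8 groups were proliferating, chondrocyte, osteoblast and smooth muscle cultures, each at 21% O2 (normoxic, n = 4 libraries) or 0.5% O2 (hypoxic, n = 3 libraries), all of the same line, at 37 °C and 5% CO2. All groups were kept with 1% penicillin/streptomycin. Proliferating cells were kept in DMEM conditioned by STO cells, with 25 ng/ml bFGF, 5 ng/ml LIF, 15% fetal calf serum, 55 µM beta-mercaptoethanol and non-essential amino acids at 0.1 mM. Osteoblast cultures spent 10 days in alpha-MEM with 10% serum, 10 mM beta-glycerophosphate, 0.1 µM dexamethasone and 100 ng/ml BMP-2. Chondrocyte cultures spent 3 days in the osteoblast medium and then 7 days as micromasses on matrigel in alpha-MEM with 5% serum, ITS, 0.1 µM dexamethasone, 10 ng/ml TGF-beta3 and 50 ng/ml BMP-2. Smooth muscle cultures spent 3 days in DMEM with 10% serum. The labels do not say whether replicates came from separate cultures, so p-values measure the spread between these libraries, which may be technical.

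Library totals lay between 19.9 and 64.7 in units of 1e+06 counts. Levels below are counts per 1e+06 counts scaled by the trimmed mean of M values (CPM), as mean ± SD. The 3 hypoxic smooth muscle libraries stood apart from the other 25: mitochondrial ribosomal RNA took 11.6% to 13.3% of their counts, against at most 0.0889% elsewhere, and their scaling factors were 0.518 to 0.545, against 0.896 to 1.26 elsewhere. Their 6 smooth muscle markers, which include Acta2 and Myh11, summed to 92.3 to 117 CPM against 3646 to 4083 CPM in normoxic smooth muscle cultures. Their 6 neural crest markers, of which Sox10 and Foxd3 were at 0, summed to 2894 to 3607 CPM, against 823 to 1016 CPM in normoxic smooth muscle cultures and 2328 to 3056 CPM in the proliferating cells of both oxygen levels. Crabp1 made up most of these sums, with 2567 ± 396 CPM in hypoxic and 638 ± 75.1 CPM in normoxic smooth muscle cultures, while Tfap2a went the other way, with 83.0 ± 9.30 and 132 ± 7.92 CPM. The label of a smooth muscle culture therefore had little marker expression behind it at 0.5% O2. The part of this in the values of these cultures was not tested. The other labels were not clean either. The normoxic osteoblast cultures summed to only 65.5 to 149 CPM over 6 osteoblast markers and to 3606 to 5173 CPM over the smooth muscle markers. The normoxic chondrocyte cultures summed to 2842 to 8395 CPM over 6 chondrocyte markers, but also to 1104 to 2581 CPM over the osteoblast and 2088 to 2524 CPM over the smooth muscle markers. The 6 hypoxia markers summed to 126 to 934 CPM in the normoxic and 1624 to 3132 CPM in the hypoxic libraries, with no overlap. The 5 endothelial markers summed to at most 7.70 CPM in any library and the 5 cardiomyocyte markers to at most 7.69 CPM, with Nkx2-5 at 0 reads in all. The 4 macrophage markers summed to 32.5 to 36.6 CPM in the hypoxic smooth muscle libraries and to at most 5.90 CPM elsewhere. Cd68 made up nearly all of that sum (34.0 ± 2.15 CPM in the hypoxic smooth muscle libraries), while Csf1r had 20 reads, Ptprc 3 and Adgre1 0 reads there, the last with a limit of 0.0855 CPM. The part of the macrophage markers in the values of these libraries was not tested.

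The gene pair that makes the ligands shares the stretch that encodes the peptide ring, the part that the receptors bind. It is printed here from the coding sequence of mouse reference transcripts, 5′ to 3′, because these 2 genes differ so much in where they were counted. Capitals mark the bases that differ between the genes. Of 51 bases, 40 were the same, and of 17 codons, 8 were the same.
Nppb: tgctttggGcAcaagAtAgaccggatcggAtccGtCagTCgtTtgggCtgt
Nppc: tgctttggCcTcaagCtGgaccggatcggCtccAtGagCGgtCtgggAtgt

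Npr3 was the clearance receptor gene on which the set turned, and it lies on chromosome 15 at chr15:11839896-11907287, minus strand, in GRCm38. In proliferating cells Npr3 stood at 69.5, 67.3, 64.8 and 70.2 CPM in the 4 normoxic libraries and at 306.9, 305.1 and 345.5 CPM in the 3 hypoxic ones. All hypoxic libraries lay above all normoxic ones, 4.68-fold (a log2 difference of 2.23). The hypoxic proliferating libraries are part of the difference that chose Npr3, so this is a description without a test, as is each Npr3 difference below that uses them or the normoxic smooth muscle libraries. In osteoblast cultures the order was the opposite. The normoxic libraries held 348.6, 355.1, 339.1 and 414.8 CPM and the hypoxic ones 175.5, 156.1 and 133.9 CPM, again without overlap. There Npr3 fell by 1.23 on the log2 scale (SE 0.12, edgeR adjusted p = 3.82e-05). In chondrocyte cultures the normoxic libraries held 89.9, 117.2, 110.7 and 103.3 CPM and the hypoxic ones 156.3, 111.5 and 117.8 CPM. These overlapped, and the log2 difference of 0.27 (SE 0.12) did not pass (edgeR adjusted p = 0.155). Cell type markers moved with oxygen in these cultures. In osteoblast cultures the osteoblast markers summed to 375 to 407 CPM at 0.5% O2 against 65.5 to 149 at 21%, the chondrocyte markers to 592 to 636 against 182 to 1468 (182 to 199 without replicate 4 of the normoxic ones), and the smooth muscle markers to 2170 to 2465 against 3606 to 5173. The 4 adipocyte markers summed there to 20.1 to 23.4 CPM against 2.56 to 6.17, nearly all of it Fabp4, with Adipoq at 0 at both oxygen levels. In chondrocyte cultures the chondrocyte markers summed to 850 to 1272 CPM at 0.5% against 2842 to 8395 at 21% O2, the adipocyte markers to 1.82 to 2.32 against 2.71 to 8.08, and the endothelial markers to 5.32 to 7.70 against 1.64 to 3.08. In proliferating cells the smooth muscle markers summed to 193 to 197 CPM at 0.5% against 92.1 to 99.2 at 21% O2, and the chondrocyte markers to 207 to 222 against 100.0 to 140.2. There the osteoblast markers summed to 47.5 to 47.8 CPM against 60.0 to 68.4, the macrophage markers to 5.49 to 5.90 against 2.20 to 3.12, and the adipocyte markers to 0.483 to 1.35 against 0.0319 to 0.309. The neural crest markers summed to 2814 to 3056 CPM at 0.5% against 2328 to 2533 at 21% O2 in proliferating cells. They summed to 308 to 354 against 209 to 287 CPM in osteoblast and to 195 to 221 against 171 to 186 CPM in chondrocyte cultures. The part of all these markers in the oxygen differences of Npr3 and of the genes below was not tested. Bulk RNA cannot tell fewer cells of a type from less RNA per cell, here and in all that follows.

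In smooth muscle cultures Npr3 stood at 137.8, 150.8, 145.8 and 160.5 CPM in the normoxic libraries and at 7.70, 7.29 and 6.35 CPM in the hypoxic ones. The hypoxic values came from 105, 75 and 71 reads, so the gene was low but well counted. This is the difference that chose the set. It came to a log2 difference of -4.24 from normoxic smooth muscle and of -5.31 from hypoxic proliferating cells, both without a test. In the authors' deposited table the same differences were -4.23 and -5.29. Under other scalings and with libraries left out the difference from hypoxic proliferating cells ran from -6.58 to -5.25. A ratio within each library does not depend on scaling: per kb of exon, the log2 ratio of Npr3 to Npr2 was -4.84 ± 0.28 in hypoxic smooth muscle cultures and lay between -0.85 and 1.295 as a mean of each other group. The part that the mitochondrial RNA of these libraries played was not tested.

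**Figure D1:**
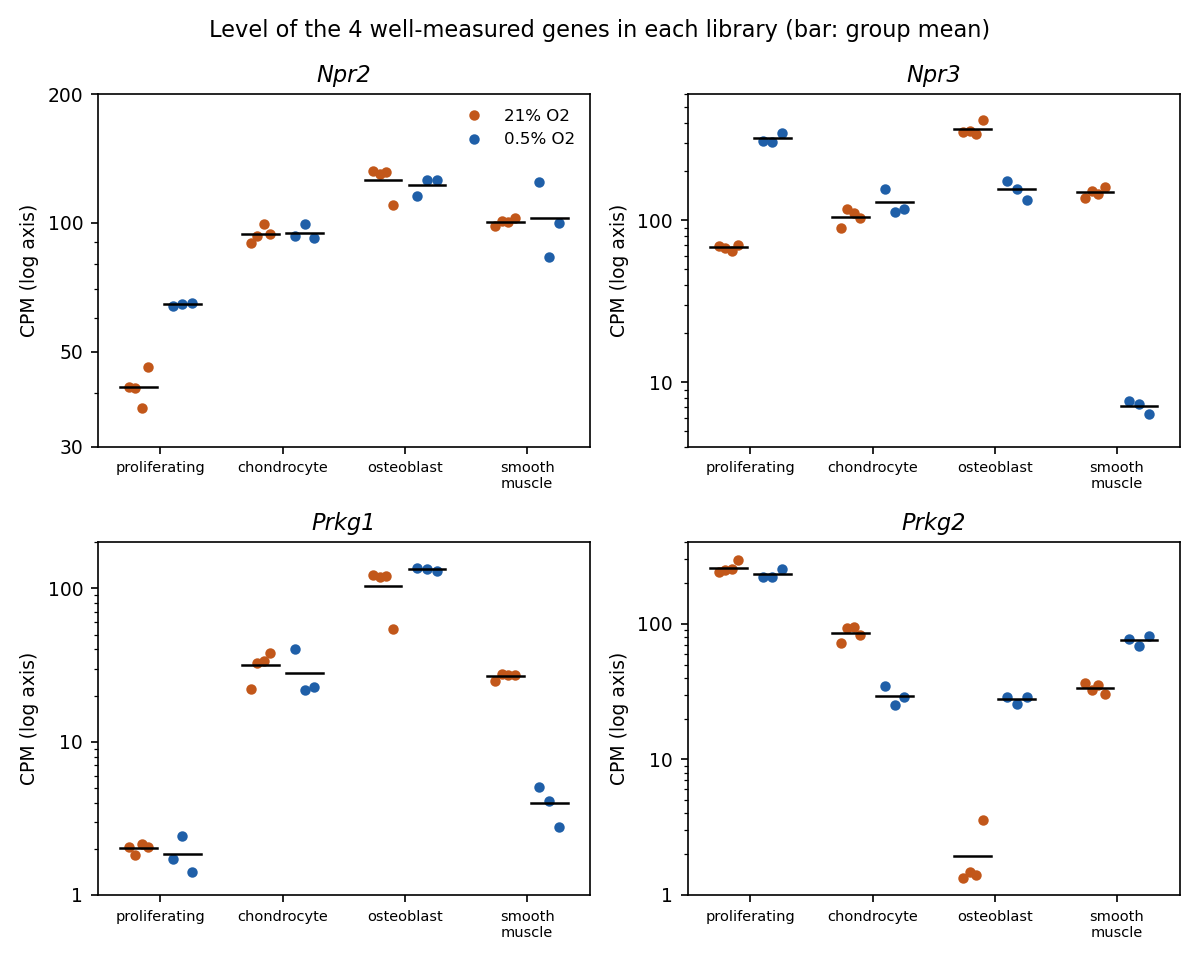
CPM (log axis) of Npr2, Npr3, Prkg1 and Prkg2 in each library, by culture and oxygen level; points are libraries and bars are group means. Npr3 in the 3 hypoxic smooth muscle libraries sits between 6.35 and 7.70 CPM, and replicate 4 of the normoxic osteoblast cultures stands apart for Prkg1 (54.1 CPM) and Prkg2 (3.57 CPM).

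Over the 8 groups Npr3 was highest in normoxic osteoblast cultures (364 ± 34.2 CPM) and hypoxic proliferating cells (319 ± 22.8), whose libraries overlapped. Next came hypoxic osteoblast (155 ± 20.9), normoxic smooth muscle (149 ± 9.50), hypoxic chondrocyte (129 ± 24.3) and normoxic chondrocyte cultures (105 ± 11.7), each overlapping its neighbour in that order. Normoxic proliferating cells (67.9 ± 2.43) and hypoxic smooth muscle cultures (7.11 ± 0.689) lay clear below them. At 21% O2 Npr3 rose from proliferating cells by a log2 fold change of 0.66 (SE 0.08, edgeR adjusted p = 7.14e-06) in chondrocyte and 2.41 (SE 0.08, adjusted p = 5.97e-09) in osteoblast cultures. Under other scalings and fits and with libraries left out, the chondrocyte value ran from 0.31 to 0.75, wider than its SE. In normoxic smooth muscle cultures the difference was 1.10, as a description. At 0.5% O2 the proliferating level was higher and the differences had the other sign, -1.31 in chondrocyte and -1.04 in osteoblast cultures. The oxygen dependence of a change is given here as an interaction, the hypoxic change from proliferating cells minus the normoxic one. For Npr3 it was -1.94 for the chondrocyte and -3.41 for the osteoblast change. These 4 values rest on the hypoxic proliferating libraries and are descriptions. The tests given for Npr3, the oxygen comparisons within chondrocyte and osteoblast cultures and their normoxic comparisons with proliferating cells, use none of the libraries that chose it.

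**Figure D2:**
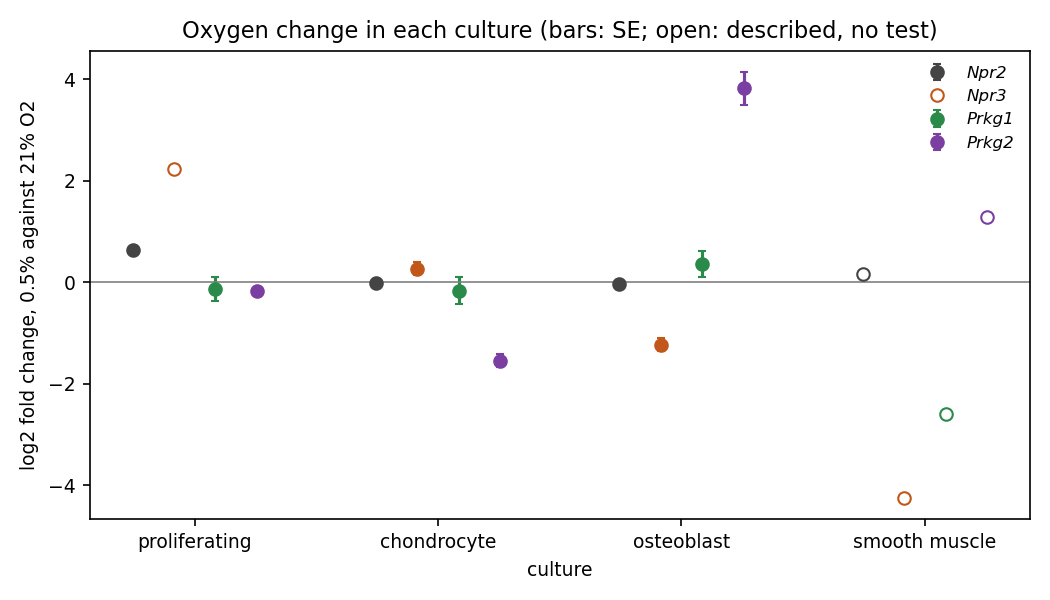
Log2 fold change at 0.5% against 21% O2 (vertical axis) of Npr2, Npr3, Prkg1 and Prkg2 in each of the 4 cultures; bars are SE, and open points (all smooth muscle cultures, and Npr3 in proliferating cells) are described without a test. Npr3 lies at 2.23 in proliferating cells and at -1.23 in osteoblast cultures, and Prkg2 at -1.55 in chondrocyte and 3.82 in osteoblast cultures. The open Prkg2 point at 1.298 turns to -0.07 when libraries are scaled by their size alone.

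Npr2, the receptor of the C-type peptide, was the more even receptor (chr4:43631935-43651244, plus strand). In proliferating cells it stood at 41.3, 41.2, 36.9 and 46.0 CPM in the normoxic libraries and at 63.9, 64.7 and 65.1 CPM in the hypoxic ones. The hypoxic libraries were all higher, by a log2 fold change of 0.64 (SE 0.07, edgeR adjusted p = 1.83e-06). In the other cultures oxygen made no difference that passed. Chondrocyte cultures held 94.2 ± 4.10 CPM at 21% and 94.9 ± 4.01 at 0.5% O2 (edgeR adjusted p = 0.969), and osteoblast cultures 126 ± 10.7 and 122 ± 6.07 (adjusted p = 0.768). The approximate precision of these differences is given by SEs of 0.06 and 0.09 on the log2 scale. Hypoxic smooth muscle cultures held 124.7, 83.4 and 99.9 CPM, spread around the 98.4 to 102.4 CPM of the normoxic ones. That log2 difference of 0.17 turned to -1.19 under scaling by library size alone and to -0.0047 without replicate 1 of the hypoxic smooth muscle cultures, so it has no settled direction.

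Npr2 rose from proliferating cells in each tested differentiation comparison. At 21% O2 its log2 fold change from proliferating cells was 1.22 in chondrocyte, 1.60 in osteoblast and 1.25 in smooth muscle cultures, with SEs of 0.06 to 0.09 and edgeR adjusted p-values of 1.11e-08, 1.15e-07 and 4.17e-11. At 0.5% O2 it was 0.56 in chondrocyte (SE 0.06, edgeR adjusted p = 2.69e-06) and 0.93 in osteoblast cultures (SE 0.07, adjusted p = 9.00e-09). Under other scalings and fits and with libraries left out, the chondrocyte value at 0.5% O2 ran from 0.23 to 0.59, wider than its SE. The hypoxic rise was smaller by 0.63 in both lineages, with interaction adjusted p-values from edgeR of 3.58e-05 and 1.67e-04. The 6 differentiated groups overlapped from one to the next in the order of their Npr2 levels, from 126 down to 94.2 CPM, and both proliferating groups lay below them. For hypoxic smooth muscle cultures this order depends on the scaling: by library size alone they held 54.9 CPM and hypoxic proliferating cells 73.8 CPM.

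Npr1, the receptor of the atrial and B-type peptides, was almost uncounted (chr3:90450591-90465866, minus strand). Its 28 libraries held between 0 and 34 reads each. The highest were the hypoxic osteoblast libraries, with 24, 31 and 34 reads (1.07 ± 0.14 CPM), followed by the normoxic osteoblast ones with 18, 7, 20 and 6 reads (0.449 ± 0.248 CPM). In hypoxic osteoblast cultures Npr1 was above hypoxic proliferating cells, which had 4, 1 and 9 reads, by a log2 fold change of 2.71 (SE 0.55, edgeR adjusted p = 4.01e-04), or 3.58 without replicate 3 of the proliferating cells. Npr1 passed the filter there only through the osteoblast libraries, so a rise was the only call it could get. Against normoxic osteoblast cultures the log2 fold change was 1.25 (SE 0.45, edgeR adjusted p = 0.0397). That call was lost in 7 of 13 alternatives, among them leaving out replicate 2 of the normoxic osteoblast cultures (adjusted p = 0.0935) or any 1 hypoxic osteoblast library (adjusted p = 0.0655 to 0.115). In the other 6 groups Npr1 held at most 9 reads in any library. An antisense gene, Gm16048, shares 559 bases of exon with Npr1 and had 11 reads in all libraries against 209 for Npr1.

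The ligand genes were weakly counted too, and each had its own place. Nppb, the B-type peptide gene (chr4:147985788-147987205, plus strand), was counted in proliferating cells: 28, 37, 28 and 17 reads at 21% O2 and 81, 60 and 89 reads at 0.5% O2. As CPM these were 0.671 ± 0.179 and 2.64 ± 0.443, with every hypoxic library above every normoxic one, and Nppb rose by a log2 fold change of 2.00 (SE 0.28, edgeR adjusted p = 2.76e-05). All differentiated groups together added 43 reads. The normoxic osteoblast libraries had 0 reads of Nppb, which puts proliferating cells at least 23.6-fold higher with 3 reads over the group as the limit. Normoxic chondrocyte cultures had 2 reads, all in replicate 4, and normoxic smooth muscle cultures had 9. The ratio of proliferating to chondrocyte CPM was 35.4 (95% counting interval 9.56 to 296) at 21% O2 and 114 (31.3 to 950) at 0.5% O2, where chondrocyte cultures again had 2 reads.

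Nppb fell in each tested differentiation comparison. It passed the filter there only through the proliferating libraries, so a fall was the only call it could get. The p-values below therefore say nothing on direction. At 21% O2 the edgeR adjusted p was 5.42e-05 for chondrocyte, 1.25e-04 for osteoblast and 7.05e-05 for smooth muscle cultures, the last with a log2 fold change of -3.28 (SE 0.57), or -3.995 without replicate 3 of the smooth muscle cultures. At 0.5% O2 it was 5.17e-07 for chondrocyte and 1.76e-06 for osteoblast cultures, the latter with a log2 fold change of -3.82 (SE 0.45), or -4.59 without replicate 1 of the osteoblast cultures. Hypoxic osteoblast cultures had 9, 2 and 4 reads, at least 6.85-fold above the normoxic osteoblast cultures by the same limit (3.98-fold without replicate 1 of the hypoxic ones), but the gene was too low to enter that test. Hypoxic smooth muscle cultures had 7, 0 and 8 reads.

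Nppc, the C-type peptide gene (chr1:86666291-86670571, minus strand), was counted most in hypoxic smooth muscle cultures. These held 31, 41 and 11 reads (2.41 ± 1.51 CPM) against 2, 0, 7 and 11 reads in the normoxic ones. The ratio of CPM was 16.0 (95% counting interval 9.72 to 27.5), and no library of either group overlapped on the CPM scale. It is a description, since those libraries chose the set. The fitted log2 difference of 4.10 became 2.74 when scaled by library size alone. It was 4.799 when replicate 4 of the normoxic smooth muscle cultures was left out. Normoxic osteoblast cultures came next, with 29, 18, 32 and 2 reads (0.726 ± 0.470 CPM), of which replicate 4 was the low one. Hypoxic osteoblast cultures had 4, 12 and 1 reads. The log2 fold change of -1.80 (SE 0.89) did not pass (edgeR adjusted p = 0.117), and without replicate 4 of the normoxic osteoblast cultures it was -2.19 with an adjusted p of 0.00509. The other 5 groups held 5 to 24 reads of Nppc in total each. Counting intervals and limits cover counting error only, since the table carries no molecular identifiers.

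**Figure D3:**
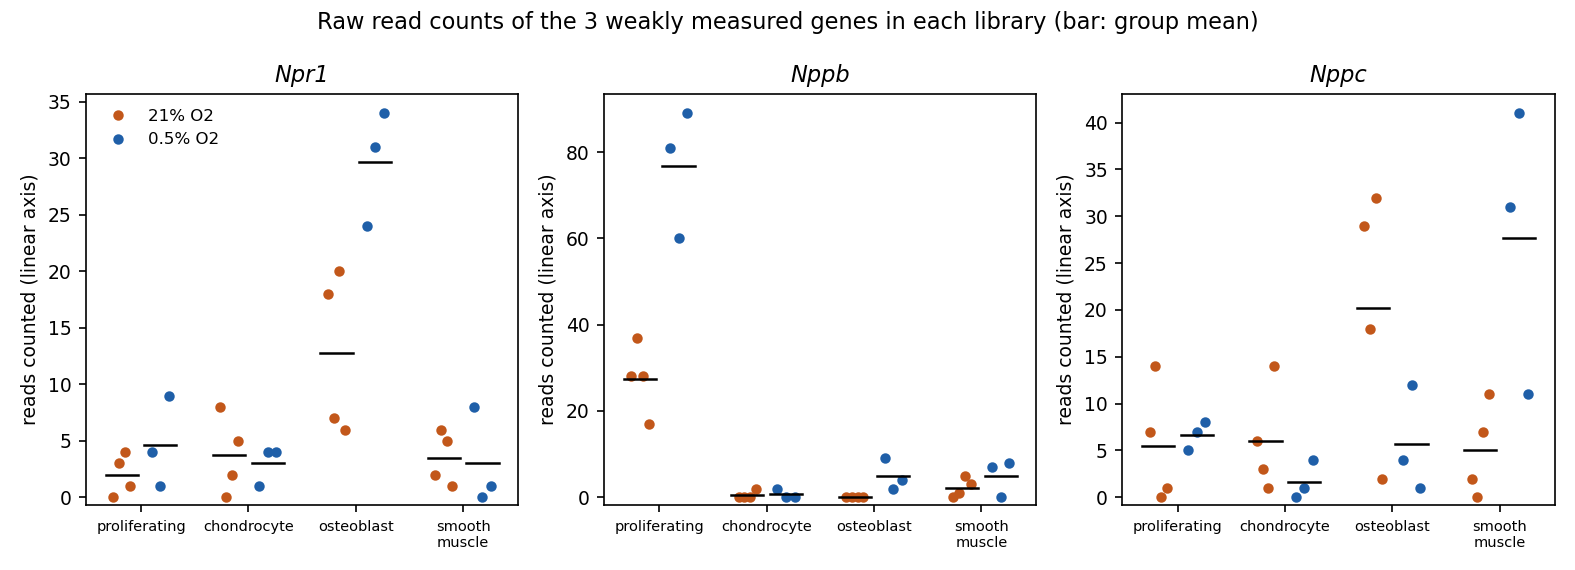
Reads counted per library (linear axis, not scaled for depth) for Npr1, Nppb and Nppc, by culture and oxygen level; points are libraries and bars are group means. Nppb reaches 60 to 89 reads in hypoxic proliferating cells, Npr1 24 to 34 reads in hypoxic osteoblast cultures and Nppc 11 to 41 reads in hypoxic smooth muscle cultures.

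From proliferating to differentiated cultures the kinase genes ran in opposite directions. Prkg1 (chr19:30564489-31765033, minus strand) was low in proliferating cells, at 2.04, 1.82, 2.14 and 2.06 CPM at 21% O2 and 1.71, 2.44 and 1.41 CPM at 0.5% O2. Its highest levels were in osteoblast cultures, at 123.0, 119.5, 120.0 and 54.1 CPM at 21% O2 and 136.3, 134.1 and 130.8 CPM at 0.5% O2. Replicate 4 of the normoxic osteoblast cultures held less than the other 3 libraries, and the hypoxic libraries were all higher than the normoxic ones. From proliferating cells Prkg1 rose 51.7-fold in osteoblast cultures at 21% O2 (log2 fold change 5.69, SE 0.29, edgeR adjusted p = 9.51e-08) and 72.4-fold at 0.5% O2 (6.18, SE 0.13, adjusted p = 4.64e-15). In chondrocyte cultures it rose by 4.01 at 21% O2 (SE 0.17, edgeR adjusted p = 1.20e-09) and by 3.93 at 0.5% O2 (SE 0.33, adjusted p = 2.58e-05), to 31.5 ± 6.69 and 28.3 ± 10.6 CPM. The interaction was -0.04 for chondrocyte (SE 0.38, edgeR adjusted p = 0.9501) and 0.53 for osteoblast cultures (SE 0.39, adjusted p = 0.280).

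Oxygen made no difference to Prkg1 that passed in proliferating (log2 fold change -0.12, SE 0.24, edgeR adjusted p = 0.670), chondrocyte (-0.17, SE 0.27, adjusted p = 0.711) or osteoblast cultures (0.37, SE 0.26, adjusted p = 0.254). Without replicate 4 of the normoxic osteoblast cultures the last was 0.15 and passed, with an adjusted p of 0.0307. Normoxic smooth muscle cultures held 24.9, 27.8, 27.2 and 27.2 CPM of Prkg1, a rise of 3.72 from proliferating cells on the log2 scale (SE 0.10, edgeR adjusted p = 4.52e-14). The hypoxic smooth muscle cultures held 5.06, 4.08 and 2.77 CPM, below every normoxic smooth muscle library and, on this scale, above every proliferating one. That description gives a log2 difference of -2.60 from normoxic smooth muscle cultures and of 1.28 from hypoxic proliferating cells. Under scaling by library size alone the first became -3.96 and the second shrank to 0.0053, and the mean of 2.12 CPM lay below that of normoxic proliferating cells (2.44 CPM).

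Prkg2 (chr5:98929773-99037351, minus strand) was highest in proliferating cells, at 239.8, 248.4, 254.9 and 294.1 CPM at 21% O2 and 221.7, 220.8 and 252.8 CPM at 0.5% O2. These overlapped, and the log2 difference of -0.17 (SE 0.07) missed the threshold (edgeR adjusted p = 0.0610), though it passed in 9 of 13 alternatives, with a size of at most 0.24. In normoxic osteoblast cultures Prkg2 was down to 1.34, 1.48, 1.41 and 3.57 CPM, 132-fold below proliferating cells (log2 fold change -7.04, SE 0.30, edgeR adjusted p = 3.17e-08). Hypoxic osteoblast cultures kept 28.9, 25.5 and 29.0 CPM, each above all normoxic osteoblast libraries. Prkg2 was thus 14.2-fold higher at 0.5% O2 there (log2 fold change 3.82, SE 0.32, edgeR adjusted p = 2.51e-05). The fall from hypoxic proliferating cells was -3.06 on the log2 scale (SE 0.08, edgeR adjusted p = 7.61e-14), and the interaction was 4.03 (SE 0.31, adjusted p = 2.05e-07).

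In chondrocyte cultures the oxygen difference of Prkg2 had the other sign. The normoxic libraries held 71.7, 93.8, 94.4 and 82.7 CPM and the hypoxic ones 34.8, 25.1 and 29.0 CPM, with no overlap. Prkg2 fell by 1.55 on the log2 scale (SE 0.13, edgeR adjusted p = 2.76e-05), and the interaction was -1.37 (SE 0.16, adjusted p = 6.45e-06). In normoxic smooth muscle cultures Prkg2 held 36.9, 32.6, 35.4 and 30.6 CPM, where it fell by 2.97 from proliferating cells on the log2 scale (SE 0.08, edgeR adjusted p = 3.46e-14). The hypoxic smooth muscle libraries held 77.2, 68.2 and 81.3 CPM. They lay above the normoxic ones on this scale by 1.298 in log2 terms, which became -0.07 under scaling by library size alone.

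The cell cycle markers Mki67, Top2a and Ccnb1 moved with Prkg2 in osteoblast cultures. Their summed level was 26.0 to 45.7 CPM in normoxic and 170 to 228 CPM in hypoxic osteoblast libraries. In proliferating cells it was 904 to 1130 CPM at 21% and 846 to 896 CPM at 0.5% O2. Chondrocyte cultures held 227 to 379 CPM at 21% and 180 to 213 CPM at 0.5% O2, and smooth muscle cultures 223 to 272 and 282 to 327 CPM. The part of cell division in the Prkg2 differences was not tested. Replicate 4 of the normoxic osteoblast cultures, which was low in Prkg1 and high in Prkg2, also held 1468 CPM of the 6 chondrocyte markers against 182 to 199 CPM in the other 3 libraries of that group.

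Taken per kb of exon and within each library, the log2 ratio of Prkg1 to Prkg2 was -8.02 ± 0.14 in normoxic and -8.02 ± 0.49 in hypoxic proliferating cells. It was 4.78 ± 1.25 in normoxic osteoblast (5.41 without replicate 4) and 1.25 ± 0.11 in hypoxic osteoblast cultures. Osteoblast cultures were thus the only groups in which Prkg1 exceeded Prkg2 in every library, from 1.15 upwards. The other ratios were -2.48 ± 0.24 and -1.13 ± 0.30 in normoxic and hypoxic chondrocyte cultures and -1.35 ± 0.18 in normoxic smooth muscle cultures. In hypoxic smooth muscle cultures the ratio was -5.31 ± 0.51, between those of proliferating cells and all other groups.

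**Figure D4:**
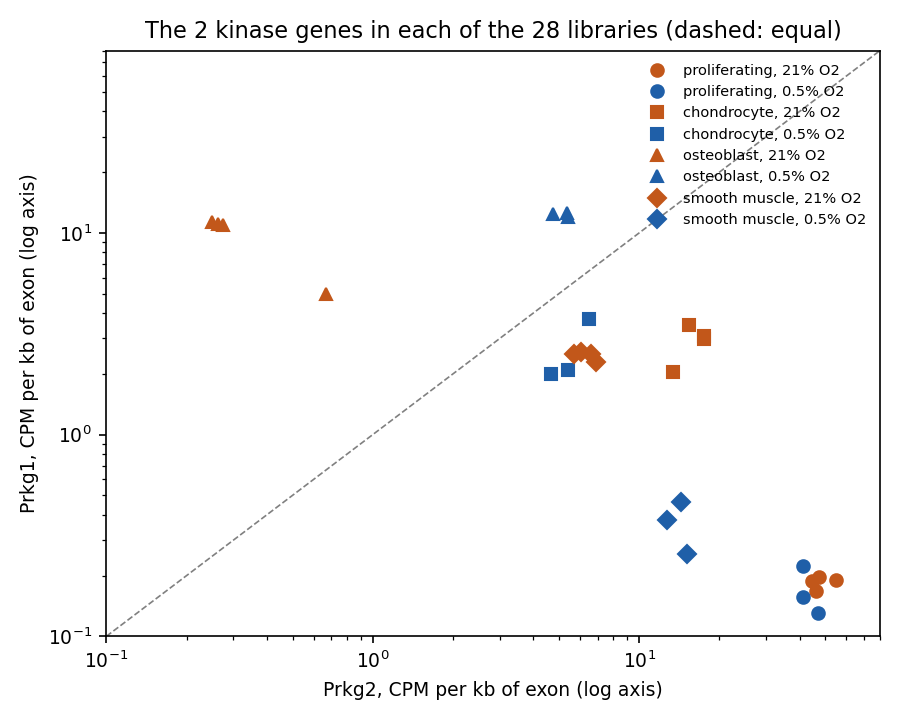
Prkg1 (vertical) against Prkg2 (horizontal) in CPM per kb of exon on log axes, 1 point per library, shaped by culture and coloured by oxygen level; the dashed line marks equal levels. The osteoblast libraries lie above the line and all others below it, with the proliferating libraries at the lower right.

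Counts of calls have to be read against all genes tested, most of which were called in the comparisons between cultures. From normoxic proliferating to chondrocyte cultures 3 of the 5 genes that entered the test rose and 2 fell, where 37.7% of all genes tested rose and 37.2% fell (74.9% called). The counts were again 3 and 2 of 5 for normoxic osteoblast cultures, with 40.9% and 37.8% of all genes (78.7% called). Where its libraries had a part in choosing it, Npr3 is left out of the counts. For normoxic smooth muscle cultures they were then 2 rising and 2 falling of 4, with 40.8% and 38.9% of all genes (79.7% called). At 0.5% O2 they were 2 and 2 of 4 for chondrocyte cultures (34.9% and 34.6% of all genes, 69.5% called) and 3 and 2 of 5 for osteoblast cultures (36.2% and 35.1%, 71.3% called). Nppb is among the falling genes in each of these counts, and Npr1 among the rising ones in hypoxic osteoblast cultures. Through the filter, each could be called in that direction only. With backgrounds this high a call in itself sets no gene apart.

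The background split depended on the scaling. Under scaling by library size alone, 3899 genes were higher and 7349 lower in normoxic chondrocyte cultures against proliferating cells, in place of 5416 and 5344. At 0.5% O2 the split was 3353 higher and 7202 lower in chondrocyte cultures, in place of 5005 and 4970, and 3994 and 6459 in osteoblast cultures, in place of 5193 and 5034. For oxygen it was 1091 higher and 2336 lower in chondrocyte cultures, in place of 1482 and 1675, and 3036 and 5200 in osteoblast cultures, in place of 3917 and 3973.

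Within proliferating, chondrocyte and osteoblast cultures oxygen called fewer genes than the comparisons between cultures did. In proliferating cells, without Npr3, 2 of 4 rose and 0 fell, where 33.1% of all genes rose and 32.3% fell (65.4% called), and the median log2 fold change of the 4 was 0.26 against 0.01 over all genes tested. In chondrocyte cultures 0 rose and 1 of 4 fell (10.4% and 11.8% of all genes, 22.2% called), the 1 being Prkg2. In osteoblast cultures 2 of 6 rose, Npr1 and Prkg2, and 1 fell, Npr3 (27% and 27.3% of all genes, 54.3% called). Again without Npr3, the chondrocyte interaction was called for 2 of 4 genes, both lower, where 21.6% of all genes were higher and 21.9% lower (43.5% called). The osteoblast interaction was called for 3 of 6, of which 2 were higher and 1 lower (28.9% and 25.3% of all genes, 54.2% called).

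Since Npr2, Npr3 and Nppb were all higher at 0.5% O2 in proliferating cells, their promoter windows are printed, each from 250 bases before to 50 bases after the RefSeq start (GRCm38.p6). Both strands were searched for ACGTG and GCGTG, the core letters of the site that hypoxia-inducible factors bind, for TGTGGT, a core of Runx sites, and for the CArG box of serum response factor. No window of the 3 held any of them, so no base is in capitals. This says only that these letters are not in these windows. Of 32851 promoters of the same length, 19.6% held ACGTG, 32.4% GCGTG, 16.8% TGTGGT and 1.63% a CArG box. The Npr3 window has 6 CpG sites and the Nppb window 7, at the median of 7 over all promoters, and the Npr2 window has 13. The Npr3 window lies wholly upstream of the start of the gene in the GENCODE annotation.
Npr2, chr4:43631685-43631984, plus strand: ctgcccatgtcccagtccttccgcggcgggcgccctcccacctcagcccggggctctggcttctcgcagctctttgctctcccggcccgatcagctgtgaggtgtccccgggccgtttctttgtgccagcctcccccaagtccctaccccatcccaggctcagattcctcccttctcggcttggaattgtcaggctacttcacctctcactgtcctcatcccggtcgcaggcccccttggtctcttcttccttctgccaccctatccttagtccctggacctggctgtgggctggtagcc
Npr3, chr15:11907322-11907621, minus strand: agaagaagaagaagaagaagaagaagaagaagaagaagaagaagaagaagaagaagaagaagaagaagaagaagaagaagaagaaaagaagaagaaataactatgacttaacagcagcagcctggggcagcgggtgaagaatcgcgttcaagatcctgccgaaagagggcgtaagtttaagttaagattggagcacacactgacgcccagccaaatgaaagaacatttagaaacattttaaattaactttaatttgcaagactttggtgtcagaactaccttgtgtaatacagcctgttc
Nppb, chr4:147985650-147985949, plus strand: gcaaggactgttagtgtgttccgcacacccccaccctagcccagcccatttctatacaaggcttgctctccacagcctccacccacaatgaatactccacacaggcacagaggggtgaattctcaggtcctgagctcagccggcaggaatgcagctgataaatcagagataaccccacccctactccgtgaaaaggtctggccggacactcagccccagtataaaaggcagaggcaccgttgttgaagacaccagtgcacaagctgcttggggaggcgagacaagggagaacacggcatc

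Among the other promoters matched, that of Npr1 held a GCGTG match starting at -218 from the RefSeq start and a TGTGGT match at -92, and that of Nppc a GCGTG match at -96. The 2 Prkg1 windows held none of the 4 motifs.

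By Pearson correlation of log2(CPM + 0.5) over the 28 libraries and 11669 genes, the profiles most like Npr3 were those of Pnpla8 (r = 0.96), Kif1bp (0.95) and Cog7 (0.95). Without the 3 hypoxic smooth muscle libraries they were Pgrmc2 (0.93), Frmpd3 (0.93) and Micu2 (0.92), so none of the first 3 remained. The closest profiles to Prkg2 were Ccna2, Racgap1 and Top2a (0.98 each), and without those libraries Kif14, Racgap1 and Cep55 (0.99 each). For Prkg1 they were Maf, Tom1l2 and Aplp2 (0.98 each), and for Npr2 Ctsf (0.97), Fam214a (0.96) and Camk2n1 (0.96). Between the genes of the set, Prkg1 and Prkg2 correlated at -0.81, Npr2 and Prkg1 at 0.81 and Npr2 and Npr3 at 0.14. Without the 3 hypoxic smooth muscle libraries these were -0.82, 0.93 and 0.53. Libraries of a group share their culture and medium, so these values describe the 8 groups rather than 28 independent points.

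A list of 44 further genes of the pathway was followed: other ligands, peptide processing, other cyclases, nitric oxide synthases, phosphodiesterases, kinase partners, channels and exporters. Of these, 16 reached a mean of 1 CPM and 28 did not, 4 of them without a read in any library. Nppa, the atrial peptide gene, had 4 reads in all. From proliferating cells at 21% O2, 14 of 20 tested rose and 5 fell in chondrocyte cultures, where 74.9% of all genes were called (37.7% higher, 37.2% lower). In osteoblast cultures 15 of 19 rose and 3 fell (78.7% of all genes called, 40.9% higher), and in smooth muscle cultures 13 of 19 rose and 4 fell (79.7%, 40.8% higher). The median log2 fold changes of the list were 1.27, 1.38 and 0.88, against 0.00, 0.07 and 0.03 over all genes tested. Some list genes were near 0 in proliferating cells, such as Ostn with no reads and Mme with 0.275 CPM at 21% O2. At either oxygen level such genes entered these tests only through the differentiated cultures. A rise was then their only possible call, and their part in the counts and medians was not tested. At 0.5% O2, 12 of 18 rose and 5 fell in chondrocyte cultures (69.5% of all genes called, 34.9% higher), and 14 of 20 rose and 5 fell in osteoblast cultures (71.3%, 36.2% higher), with medians of 0.58 and 0.85 against -0.02 and 0.00. For oxygen, 7 of 17 rose and 4 fell in proliferating cells (65.4% of all genes called, median 0.16 against 0.01). In chondrocyte cultures 2 of 23 rose and 7 fell (22.2%, median -0.27 against -0.01), and in osteoblast cultures 3 of 20 rose and 9 fell (54.3%, median -0.37 against -0.03). Leaving out replicate 1 of the hypoxic proliferating cells took the number called in proliferating cells from 11 to 7.

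Of the genes for peptide breakdown, Mme encodes neprilysin, a protease known to degrade natriuretic peptides. Mme held 0.275 ± 0.0518 CPM in normoxic proliferating cells, 103 ± 5.77 in osteoblast and 121 ± 15.9 in smooth muscle cultures. The rise was 8.55 and 8.78 on the log2 scale, both passing. Mme entered those tests only through the differentiated cultures, so a rise was the only call open to it. At 0.5% O2 it was lower in osteoblast cultures (38.2 ± 0.686 CPM, log2 fold change -1.42) and in chondrocyte cultures (9.49 ± 1.38 against 17.2 ± 3.43 CPM, -0.87), both passing by edgeR. Hypoxic smooth muscle cultures held 1.27 ± 0.255 CPM of Mme. Ide, the insulin-degrading enzyme, fell at 0.5% O2 in proliferating cells, from 143 ± 11.2 to 56.8 ± 3.82 CPM (-1.34), in osteoblast cultures, from 115 ± 13.9 to 69.1 ± 1.5 CPM (-0.72), and in chondrocyte cultures by 0.27 on the log2 scale (edgeR adjusted p = 0.00749). The last did not pass in 1 fit of all 28 libraries (adjusted p = 0.0682). Ostn, which encodes osteocrin, a ligand of the clearance receptor, had no reads in proliferating cells. It reached 11.6 ± 4.15 CPM in normoxic and 0.707 ± 0.382 CPM in hypoxic chondrocyte cultures, where it fell by 4.02 on the log2 scale, which passed.

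The convertases are the enzymes that cut precursor proteins. Furin was well counted in all groups, from 59.2 ± 7.73 CPM in hypoxic smooth muscle to 267 ± 15.1 CPM in normoxic chondrocyte cultures. Pcsk6 stood at 0.417 ± 0.186 CPM in normoxic proliferating cells and at 23.2 ± 9.07 CPM in normoxic chondrocyte cultures, a rise of 5.71 that passed, and it had no read in hypoxic smooth muscle cultures.

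Among the phosphodiesterases, which break down cyclic nucleotides, Pde5a rose from 0.486 ± 0.159 CPM in normoxic proliferating cells to 32.8 ± 5.09 CPM in osteoblast cultures (log2 fold change 6.17). Oxygen changed Pde5a in 3 cultures: by 1.55 in proliferating cells, by 0.92 in chondrocyte and by -1.64 in osteoblast cultures, each passing by edgeR. Pde1b rose at 0.5% O2 in proliferating cells, from 0.604 ± 0.207 to 6.42 ± 0.620 CPM (3.41). It reached 27.0 ± 3.65 CPM in hypoxic smooth muscle cultures, its highest level on this scale. That level depends on the low scaling factors of those libraries. Pde3b fell in osteoblast cultures at 0.5% O2, from 151 ± 27.6 to 55.3 ± 4.91 CPM (-1.44). In proliferating cells it went the other way, from 99.4 ± 1.84 to 129 ± 3.21 CPM. That rise passed by edgeR, but not in 1 fit of all 28 libraries (adjusted p = 0.0632). Pde3a rose by 4.47 on the log2 scale in normoxic osteoblast cultures, to 11.4 ± 2.37 CPM.

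Irag1, listed under its older name Mrvi1 in the deposited tables, encodes a substrate through which the Prkg1 kinase lowers calcium release in smooth muscle. It held 0.0163 CPM in normoxic proliferating cells, 12.7 ± 0.878 CPM in normoxic smooth muscle and 15.4 ± 2.55 CPM in normoxic osteoblast cultures. The call was higher in both, the only call open to a gene so low in proliferating cells. Irag1 was lower in hypoxic osteoblast cultures (5.16 ± 0.791 CPM, -1.57, passing) and had no read in hypoxic smooth muscle cultures. Rgs2, a kinase substrate that restrains G protein signalling, rose at 0.5% O2 in proliferating cells, from 48.9 ± 9.23 to 82.6 ± 2.89 CPM (0.75), and fell in chondrocyte cultures, from 33.9 ± 5.59 to 18.3 ± 3.04 CPM (-0.91). Abcc4, a pump that exports cyclic nucleotides, was highest in chondrocyte cultures, at 31.8 ± 2.70 CPM at 21% and 36.6 ± 2.35 CPM at 0.5% O2, and the rise from proliferating cells passed at both oxygen levels (1.51 and 1.91).

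**Figure D5:**
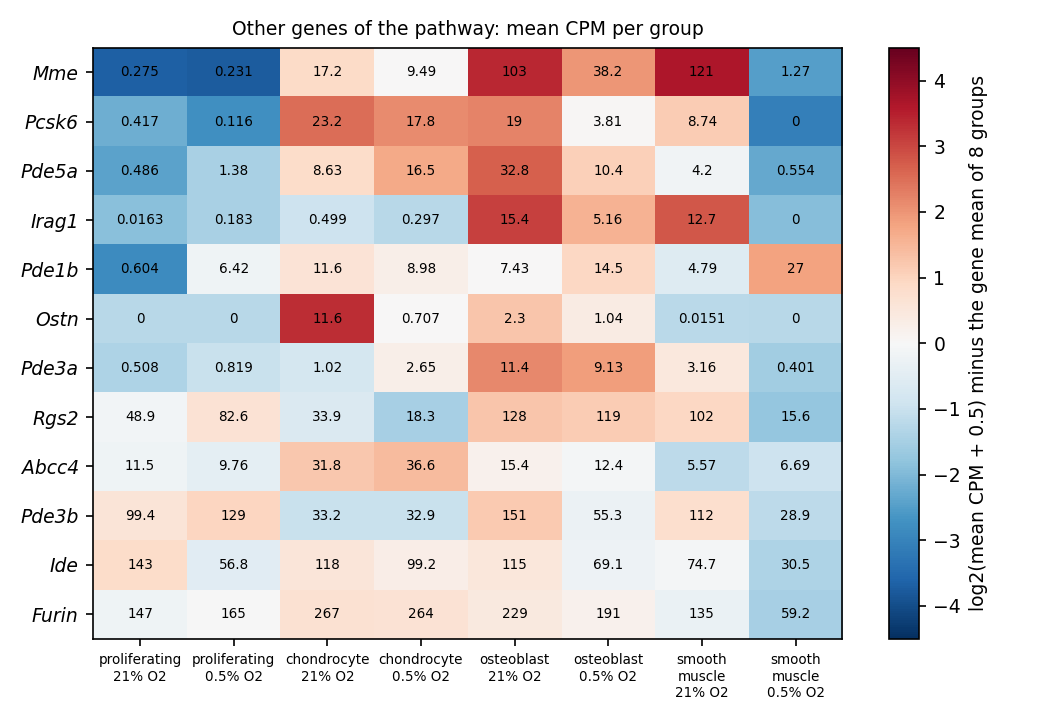
Mean CPM (printed in each cell) of the 12 named pathway genes in the 8 groups; colour is log2(mean CPM + 0.5) minus the mean of the gene over the groups. Mme is at 103 and 121 CPM in normoxic osteoblast and smooth muscle cultures and at 1.27 CPM in hypoxic smooth muscle cultures, and Ostn at 11.6 CPM in normoxic chondrocyte cultures.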

How the data were processed

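The counts are the whole-number read counts per gene that the authors deposited for 28 libraries of polyadenylated RNA. The submitters' processing notes name HISAT2 2.0.5, StringTie 1.3.3b, featureCounts 1.5.0-p3 and mm10. Annotation and strand use in counting are not given in the sources used here, so reads of overlapping antisense genes (Gm12473 for Npr2, Gm5144 for Npr3) may not be separate. A further 10 deposited tables hold log2 fold changes, per the file headers, quoted only where named. Another 70 columns of single libraries in them were not used.

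Counts were tested with edgeR 4.0.16 (R 4.3.3): TMM scaling, filterByExpr (minimum of 10 counts at median library size and of 15 in total), robust quasi-likelihood, two-sided, each pair of groups alone, Benjamini-Hochberg over all genes tested, threshold 0.05. Interactions used 4 groups. The procedure was also run on simulated counts in which few genes changed, so that run does not bear on the scaling of these data. SE is the log2 fold change divided by the square root of F. Genes and exon lengths come from GENCODE M21 (GRCm38), promoters from RefSeq. The genes and lists were chosen with earlier results of these data known. Named genes were the 7 genes, the 12 list genes of widest range among those called with a mean of at least 1 CPM, and 3 closest profiles per gene. Replicates with the same number shared no more than the number (correlation of residuals -0.165 to 0.114). No replicates were duplicates (lowest chi-square per gene 2.89). Alternatives were DESeq2 1.42.0, its size factors, library size alone, no filter, a replicate block, all 28 libraries in 1 fit, and each library left out.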

Additional observations from a re-analysis of the deposited data

Results flagged for a closer look

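Replicate 4 of the normoxic osteoblast cultures lay far from the other 3 libraries of its group for 3 genes: Npr2 at 110.0 CPM, Prkg1 at 54.1 CPM and Prkg2 at 3.57 CPM. In all, 19 combinations of a gene and a normoxic group were examined in this way. Chance flags about 1 in 20, but the 3 values come from the same library and are not independent. That library also stood apart over the genes as a whole. The chi-square per gene, a measure of distance between a pair of libraries, was 91.2, 91.1 and 97.1 against replicates 1, 2 and 3. Among those 3 it was 2.89 to 3.88.

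The oxygen dependence of the change from proliferating cells passed a test of the difference itself in 5 cases. For the chondrocyte change it was -0.63 for Npr2 and -1.37 for Prkg2 on the log2 scale. For the osteoblast change it was -0.63 for Npr2, 4.03 for Prkg2 and 3.66 for Nppb. The Npr3 values, -1.94 for the chondrocyte and -3.41 for the osteoblast change, use libraries that chose Npr3 and are given as a description. The Nppb value (SE 1.27, edgeR adjusted p = 0.0262) rests on 0 reads in normoxic and 15 in hypoxic osteoblast cultures, and without replicate 1 of the hypoxic osteoblast cultures its adjusted p was 0.0566, and in 1 fit of all 28 libraries 0.0700.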

How the results depend on the processing

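Scaling by library size alone moved the median log2 difference of all genes tested from -0.07 to -1.35 for hypoxic smooth muscle against hypoxic proliferating cells, from -0.12 to -1.49 against normoxic smooth muscle cultures, and to -0.35 in both chondrocyte comparisons with proliferating cells. With it, the described Npr2 differences of hypoxic smooth muscle cultures reversed to -0.43 against proliferating cells and -1.19 against normoxic smooth muscle cultures, that of Prkg2 against normoxic smooth muscle cultures to -0.071, and Furin in hypoxic osteoblast against proliferating cells to -0.019. Npr2 also reversed, to -0.0047, without replicate 1 of the hypoxic smooth muscle cultures (range -0.0047 to 0.28 with libraries left out). Npr3 in those cultures kept its direction, at -6.58 (library size) and -5.43 (all 28 libraries in 1 fit) against proliferating cells and at -5.61 (library size) and -4.36 (no filter) against normoxic smooth muscle cultures. Its level of 7.11 CPM became 3.79 (library size) or 8.11 CPM (DESeq2 size factors). The cause was not tested.

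With each library left out, the number of all genes called between chondrocyte cultures ran from 2091 (without replicate 3 of the hypoxic ones) to 3359, against 3157. That of the 7 genes called between osteoblast cultures ran from 2 to 5 (without replicate 4 of the normoxic ones), against 3. The other 18 counts stayed within 1.5 times. Of 53 tested fold changes of the 7 genes, 51 kept their side of the threshold under DESeq2 and 52 under its size factors. Genes with few reads (Npr1, Nppb, Nppc) are limited by counting error.

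The replicate block kept all 20 counts of calls within 1.5 times. It ended the Npr1 call between osteoblast cultures (1.04, adjusted p = 0.0652), and it brought past the threshold Nppc between osteoblast cultures (-2.28, adjusted p = 0.00651) and in the osteoblast interaction (-3.04, adjusted p = 0.0300), and Prkg2 between proliferating cells (-0.10, adjusted p = 0.0122). Hypoxic groups had no replicate 4. Between the oxygen levels of a culture the block therefore in effect left out normoxic replicate 4, and is no separate check from doing so. In 0 of 10 comparisons did all same-numbered pairs correlate above 0.1.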
